A study of Mus musculus with 16 samples.

Results

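Selectins and leukocyte integrins were described through the assays of the inflammation panel that carry the gene names Selp (P-selectin), Sele (E-selectin), Itgam (integrin alpha M, CD11b) and Itgb2 (integrin beta 2, CD18). These are 4 of the 584 genes measured, each by 1 of the 648 assays. Real-time PCR on total RNA of mouse colonic mucosa gave a cycle threshold (Ct) for every assay in 16 samples, 4 in each of 4 groups. The healthy group received PBS intrarectally and PBS by mouth, and the DNBS group received DNBS intrarectally, a hapten used to provoke colitis in rodents, and PBS by mouth. The DNBS_CEC and DNBS_Nissle groups received the same intrarectal DNBS with CEC or Nissle by mouth, terms that the labels do not spell out. No strain, age, sex or time after treatment is given in the labels used here. The series' design text speaks of RNA of the mice being pooled in equal amounts, while the samples are numbered singly, which leaves unsettled what each numbered sample stands for, and p-values measure only the spread between these samples, which may be technical.

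Selectins and beta 2 integrins act one after the other when leukocytes leave the blood. P-selectin is stored in granules of platelets and endothelial cells and reaches the surface within moments of activation, whereas E-selectin has to be newly transcribed in endothelium exposed to inflammatory cytokines; both hold passing leukocytes loosely so that they roll. Integrin alpha M pairs with integrin beta 2 to form Mac-1, carried by neutrophils, monocytes and macrophages, which binds ICAM-1, fibrinogen and complement fragments during firm adhesion and phagocytosis. Integrin beta 2 also pairs with other alpha chains, among them the product of Itgal (LFA-1), so that it is found on all leukocytes.

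Sele and Selp both lie on mouse chromosome 1. In the RefSeq annotation of build GRCm38.p6, Sele spans chr1:164039614-164058487 and Selp spans chr1:164115264-164150026. Itgam lies at chr7:128062640-128118491, and Itgb2 at chr10:77530329-77565708. The 250 bases upstream of an annotated start were read from RefSeq for the 3 members that have an entry, Selp, Sele and Itgam, and are shown because Selp and Sele had high values in many of the same samples while Itgam had another profile. For Sele this start lies inside the gene's annotated span. Capitals mark GGNNNTTCC, a loose pattern that covers many NF-kB sites, in Selp and Sele, TGACTCA (an AP-1 site) and TATAAA (the core promoter element near many transcription starts) in Sele, and GAGGAA (the core of a PU.1-type ETS site) in Sele and Itgam, each searched on both strands.
Selp, chr1:164115014-164115263, plus strand: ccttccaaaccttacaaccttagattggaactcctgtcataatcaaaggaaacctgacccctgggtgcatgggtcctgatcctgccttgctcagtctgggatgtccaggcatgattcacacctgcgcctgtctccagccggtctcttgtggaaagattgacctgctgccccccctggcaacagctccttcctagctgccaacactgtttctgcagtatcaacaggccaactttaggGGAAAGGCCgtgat
Sele, chr1:164047984-164048233, plus strand: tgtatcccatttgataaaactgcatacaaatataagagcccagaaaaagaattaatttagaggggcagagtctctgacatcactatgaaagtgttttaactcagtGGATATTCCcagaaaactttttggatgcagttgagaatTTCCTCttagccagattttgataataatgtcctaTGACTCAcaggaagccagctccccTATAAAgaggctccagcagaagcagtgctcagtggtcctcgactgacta
Itgam, chr7:128062390-128062639, plus strand: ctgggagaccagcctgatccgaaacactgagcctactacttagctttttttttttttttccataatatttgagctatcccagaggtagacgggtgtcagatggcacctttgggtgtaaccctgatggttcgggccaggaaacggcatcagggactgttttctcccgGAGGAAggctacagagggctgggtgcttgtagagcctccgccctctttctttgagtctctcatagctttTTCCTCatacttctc

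The first base of the Sele TATAAA lies 49 bases upstream of the start, that of TGACTCA 73 bases upstream and that of GGATATTCC 145 bases upstream, and GAGGAA lies on its minus strand (TTCCTC) 107 bases upstream. Selp holds the NF-kB-type pattern once, on the minus strand (GGAAAGGCC), 14 bases upstream, and none of the other 3 patterns. Itgam holds GAGGAA on the plus strand 84 bases upstream and on the minus strand (TTCCTC) 15 bases upstream, and none of the other 3 patterns. Of 32851 promoter windows of this length, 15.7% hold GGNNNTTCC, 12.4% hold TATAAA, 4.46% hold TGACTCA and 23.3% hold GAGGAA on either strand. The patterns were chosen with these sequences in view, and a match is a description of letters only.

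All levels below are the mean Ct of 13 reference genes (19 assays) minus the Ct of the gene, on a log2 scale on which 1 unit is a doubling, so that a less negative level means more RNA. Because each assay has its own efficiency, levels are compared between samples and not between genes. A Ct above 28 was taken as not detected, and a Ct of 40 is no amplification. The number of assays detected ran from 528 to 539 in healthy samples and from 548 to 564 in the DNBS-treated groups, and the reference mean ran from a Ct of 18.69 to 20.12. Some deposited values are exact means of the other samples of their group, apparently filled in: 57 in healthy 3, 61 in DNBS_Nissle 1 and between 1 and 12 in the others. Among the 4 members the sole filled value is Sele in DNBS_Nissle 1. In whole mucosa, more cells of a type and more RNA per cell cannot be told apart.

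P-selectin mRNA was lowest in healthy mucosa and highest in the DNBS_Nissle group. In healthy samples the Selp level was -6.71 (3), -6.03 (4), -7.20 (5) and -6.29 (6), the number in brackets being the sample's own. With DNBS it was -6.37 (2), -2.90 (3), -4.93 (4) and -4.99 (5), and with DNBS_CEC -4.28 (1), -4.85 (2), -6.32 (6) and -6.55 (8). With DNBS_Nissle it was -1.83 (1), -2.95 (4), -4.27 (5) and -4.14 (7). All 4 DNBS_Nissle samples lay above every healthy and every DNBS_CEC sample, DNBS_Nissle 5 only just above DNBS_CEC 1, whereas DNBS 2, DNBS_CEC 6 and DNBS_CEC 8 lay within the healthy range. The group means ± SD (n = 4) were -6.56 ± 0.51 in healthy, -5.50 ± 1.11 in DNBS_CEC, -4.80 ± 1.43 in DNBS and -3.30 ± 1.14 in DNBS_Nissle.

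Selp rose in DNBS_Nissle against healthy by 3.26 ± 0.71 (SE), or 9.57-fold, with a 95% interval of 1.77 to 4.75 and an adjusted p of 0.0175 in limma, and was the sole member to pass in any of the 6 comparisons, Sele not being tested in this fit. It ranked 7 of 457 genes tested there by p, and the fit called 11 genes (2.41%), all higher in DNBS_Nissle; in 7.44% of the genes every DNBS_Nissle sample exceeded every healthy sample. The call was lost in several recomputations. Without DNBS_Nissle 1, the difference was 2.77 with an adjusted p of 0.0732, and without healthy 3 it was 3.21 with an adjusted p of 0.0673, these being the samples with most filled values, although their own Selp values were measured. Without both it was 2.72 with an adjusted p of 0.204, and with the replicate number as a block 3.29 with an adjusted p of 0.0946. DNBS alone gave 1.76 ± 0.71 above healthy (3.39-fold, interval 0.27 to 3.25, adjusted p = 0.324), a comparison in which limma called 5 of 457 genes (1.09%) and in which 3 of 4 DNBS samples lay above all healthy ones. DNBS_CEC lay 1.06 ± 0.70 above healthy (interval -0.43 to 2.55, adjusted p = 0.916), where limma called 0 of 458 genes (0%) and 25 (5.46%) had an unadjusted p under 0.05.

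Between the treated groups no gene passed in limma. Selp stood at -2.20 ± 0.71 in DNBS_CEC against DNBS_Nissle (4.60-fold lower, interval -3.71 to -0.69, unadjusted p = 0.00692, adjusted p = 0.814), ranking 4 of 471 genes. The 2 groups did not overlap, but DNBS_Nissle 5 (-4.271) and DNBS_CEC 1 (-4.279) were nearly tied. No overlap in this direction held for 1.27% of genes, and 0 of 471 (0%) were called with 21 (4.46%) under an unadjusted p of 0.05. The exact permutation test of Selp alone gave p = 0.0286, the smallest that 4 against 4 allows. DNBS_Nissle stood 1.50 ± 0.71 above DNBS (interval -0.01 to 3.01, adjusted p = 0.995), with 0 of 474 genes called (0%) and 7 (1.48%) under the unadjusted threshold. DNBS_CEC stood at -0.70 ± 0.71 against DNBS (interval -2.21 to 0.80, adjusted p = 0.999), with 0 of 474 called (0%) and 8 (1.69%) under the unadjusted threshold. The intervals of the last 2 comparisons hold both no difference and more than a 4-fold one. Leaving out 1 sample, Selp ranged from -1.23 to -0.07 in DNBS_CEC against DNBS. A test for any difference among the 4 groups in limma gave Selp an F of 7.52 and an adjusted p of 0.0917, rank 11 of 453 genes, of which 0 were called (0%) and 37 (8.17%) had an unadjusted p under 0.05.

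**Figure D1:**
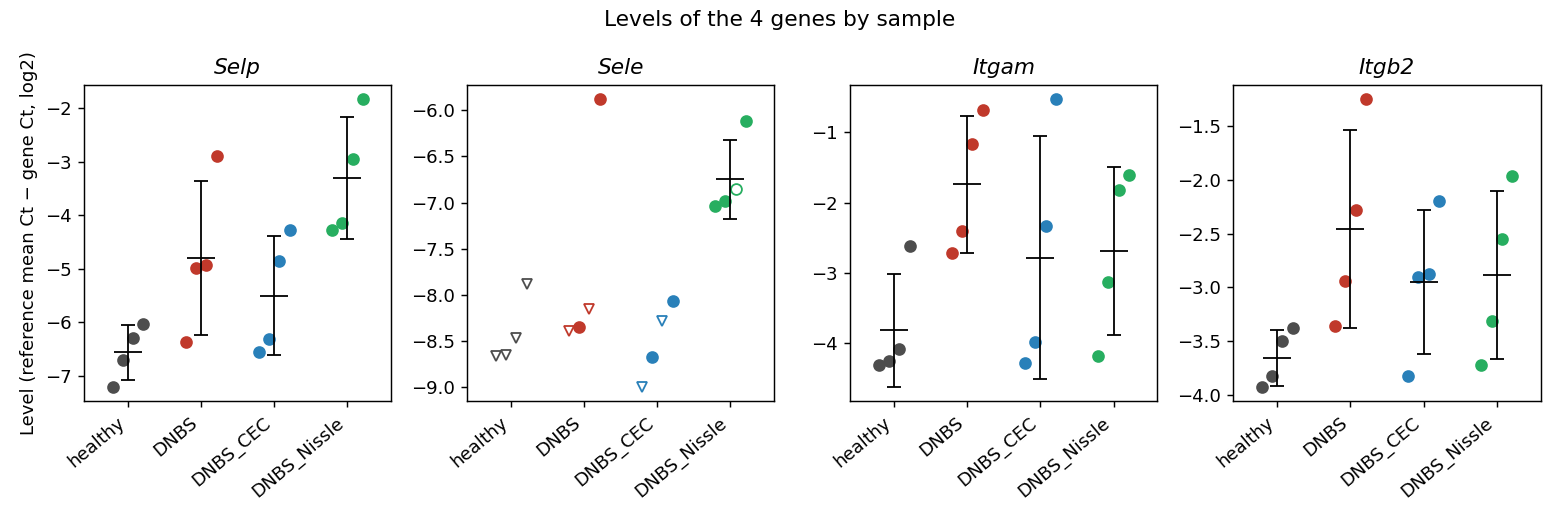
Levels of Selp, Sele, Itgam and Itgb2 in each sample, as reference mean Ct minus gene Ct (log2, vertical axis), by group. Filled circles are measured values, the open circle is the filled-in Sele value, open triangles are samples in which Sele was not detected, drawn at the detection limit, and bars are mean ± SD where all 4 samples were detected; the 4 DNBS_Nissle samples of Selp sit between -4.27 and -1.83, above the healthy range of -7.20 to -6.03.

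E-selectin mRNA was near the limit of the assay. The Ct of Sele in healthy samples was 29.33 and 30.48 in the pair that amplified and 40 in the other pair, so that it was detected in 0 of 4. With DNBS the Ct was 28.84 (2), 24.88 (3), 28.59 (4) and 27.35 (5), detected in 2 of 4, and with DNBS_CEC it was 27.95 (1), 27.29 (2), 30.13 (6) and 29.49 (8), also detected in 2 of 4. With DNBS_Nissle it was 25.82 (1, filled), 24.98 (4), 26.80 (5) and 25.68 (7), detected in 4 of 4, of which 3 were measured. Outside the DNBS_Nissle group, the samples with a detectable Sele were DNBS 3 and 5 and DNBS_CEC 1 and 2. DNBS 3, DNBS_CEC 1 and DNBS_CEC 2 were also the highest samples of their groups in Selp.

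With Sele detected in too few samples to enter the fit in any comparison, only bounds can be given. Against the detection limit of each healthy sample, the DNBS_Nissle mean level of -6.75 ± 0.43 (SD, n = 4, of which 3 measured) was at least 3.18-fold higher, and at least 2.75-fold to 3.60-fold higher when any 1 sample was left out. The exact permutation test at the limit gave p = 0.0286, and Fisher's exact test of 4 of 4 against 0 of 4 detected gave p = 0.0286 and an adjusted p of 1 over 516 genes. That p is the smallest 4 against 4 allows in either test. A pass over 516 genes would have needed very many of them at that value, so the adjusted p does not weigh Sele. In 15 of these 516 genes (2.91%), at least 3 DNBS_Nissle samples and at most 1 healthy sample were detected. With the filled values left out throughout, the exact permutation p was 0.0571. DNBS_Nissle exceeded DNBS_CEC by at least 3.38-fold in Sele (difference at the limit -1.76, exact permutation p = 0.0286), while Fisher's exact test of 2 of 4 against 4 of 4 detected gave p = 0.429 and an adjusted p of 1. At a limit of 26 this difference was -0.15 (exact permutation p = 0.657). DNBS and DNBS_CEC, with 2 of 4 detected each, were not told apart from healthy (Fisher's exact test p = 0.429 for each).
Raising the limit to a Ct of 30 allowed 3 comparisons in limma, and none passed. There Sele in DNBS_CEC was at -2.33 ± 0.77 against DNBS_Nissle (adjusted p = 0.694), DNBS_Nissle at 1.30 ± 0.72 against DNBS (adjusted p = 0.979), and DNBS_CEC at -1.02 ± 0.77 against DNBS (adjusted p = 0.997).

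Both selectins were detected in 8 samples, among them DNBS_Nissle 1, whose Sele value is a filled one. Over these 8, the levels of Selp and Sele had a Pearson r of 0.71 (exact permutation p = 0.0484, adjusted p = 0.0994 over 6 member pairs) and a Spearman rho of 0.86 (exact permutation p = 0.0107, adjusted p = 0.0321). Without the 2 samples farthest from the median of Selp, r was 0.80 and rho 0.83 (n = 6), with adjusted exact permutation p-values of 0.129 and 0.117, and with each sample scaled to its global mean rho was 0.69 (exact permutation p = 0.0694, adjusted p = 0.104). Deviations from the group means had an r of 0.61 (permutation p = 0.415, adjusted p = 0.623), and 4 of the 8 samples are DNBS_Nissle, so the relation did not pass within groups and the call of rho was lost in both recomputations. Within a sample, Selp minus Sele ran from 2.77 to 4.40 where both were measured, and was 5.02 in DNBS_Nissle 1 with its filled Sele value.

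CD11b mRNA was highest in the group given DNBS without an oral agent. The Itgam level in healthy samples was -4.08 (3), -2.62 (4), -4.30 (5) and -4.25 (6). With DNBS it was -1.17 (2), -0.68 (3), -2.41 (4) and -2.71 (5). Among these, 3 of 4 lay above all healthy samples, and DNBS 5 lay just below healthy 4. With DNBS_CEC the level was -0.53 (1), -3.98 (2), -2.33 (6) and -4.28 (8), and with DNBS_Nissle -1.61 (1), -4.17 (4), -1.82 (5) and -3.13 (7). Each of these groups held samples at the healthy level and samples at the DNBS level. The means ± SD (n = 4) were -3.81 ± 0.80 in healthy, -2.78 ± 1.73 in DNBS_CEC, -2.69 ± 1.20 in DNBS_Nissle and -1.74 ± 0.97 in DNBS.

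Itgb2 followed the same order with a narrower range. In healthy samples its level was -3.92 (3), -3.38 (4), -3.49 (5) and -3.82 (6), and with DNBS it was -2.28 (2), -1.25 (3), -2.94 (4) and -3.36 (5). All 4 DNBS samples lay above all healthy ones, DNBS 5 by a small margin. With DNBS_CEC the level was -2.20 (1), -2.88 (2), -2.91 (6) and -3.82 (8), and with DNBS_Nissle -2.55 (1), -3.72 (4), -1.97 (5) and -3.31 (7). In each of these groups 3 samples lay above the healthy range. The means ± SD (n = 4) were -3.65 ± 0.26 in healthy, -2.95 ± 0.66 in DNBS_CEC, -2.89 ± 0.78 in DNBS_Nissle and -2.46 ± 0.92 in DNBS.

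Neither integrin chain passed in any comparison. Against healthy, DNBS gave 2.07 ± 0.78 for Itgam (4.20-fold, interval 0.42 to 3.72, unadjusted p = 0.0169, adjusted p = 0.324 in limma) and 1.20 ± 0.48 for Itgb2 (2.29-fold, interval 0.18 to 2.21, unadjusted p = 0.0240, adjusted p = 0.324). In this comparison 45 genes (9.85%) had an unadjusted p under 0.05, and 31 (6.78%) had every DNBS sample above every healthy one, as Itgb2 did. The exact permutation p of Itgb2 alone was 0.0286. Against healthy, DNBS_Nissle gave 1.13 ± 0.78 for Itgam and 0.76 ± 0.48 for Itgb2 (adjusted p = 0.537 and 0.457), and DNBS_CEC gave 1.03 ± 0.78 and 0.70 ± 0.48 (adjusted p = 0.916 for both), Itgam ranging from 0.28 to 1.53 there leaving out 1 sample. These comparisons share the 4 healthy samples.

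Between the treated groups the integrin differences were smaller than their errors or close to them. DNBS_CEC stood at -1.04 ± 0.78 in Itgam and -0.49 ± 0.48 in Itgb2 against DNBS, with intervals of -2.70 to 0.62 and -1.52 to 0.53. DNBS_Nissle stood at -0.95 ± 0.78 and -0.43 ± 0.48 against DNBS, with intervals of -2.61 to 0.72 and -1.46 to 0.59, and ranged from -1.30 to -0.45 and from -0.74 to -0.03 leaving out 1 sample. Between DNBS_CEC and DNBS_Nissle the differences were -0.10 (interval -1.76 to 1.57) in Itgam and -0.06 (interval -1.08 to 0.96) in Itgb2, and the sign turned when single samples were left out. All adjusted p-values lay between 0.971 and 0.999 in limma.

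**Figure D2:**
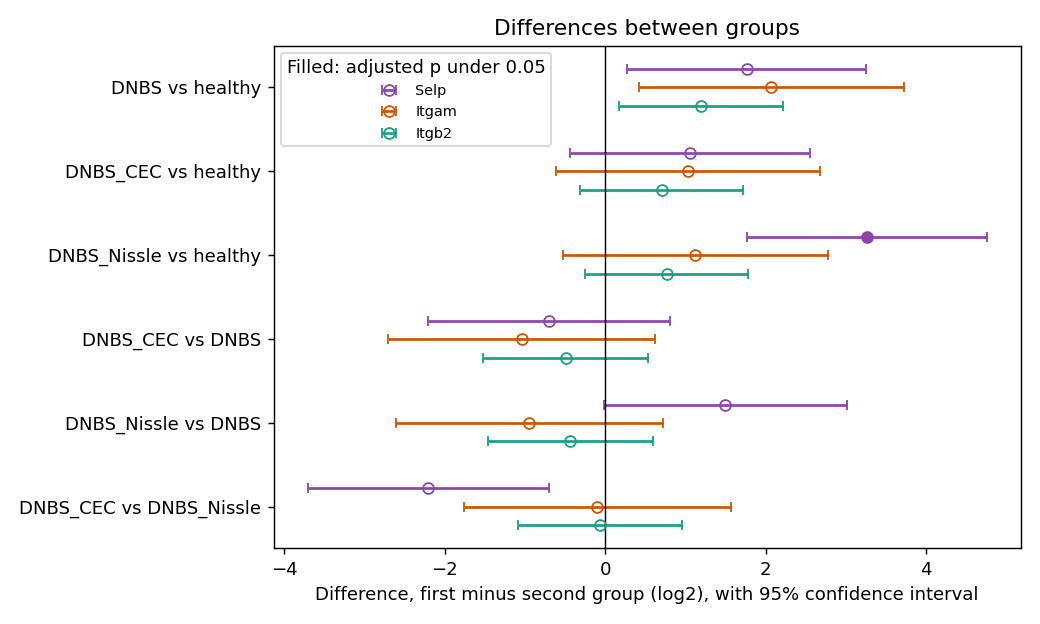
Differences between groups in Selp, Itgam and Itgb2 (horizontal axis, log2, first group minus second) with 95% confidence intervals from the limma fit, for the 6 comparisons on the vertical axis. The filled point, Selp in DNBS_Nissle against healthy at 3.26, is the sole one with an adjusted p under 0.05.

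From DNBS to DNBS_Nissle the difference of Selp was above 0 and those of the integrins below 0, none passing, and the genes were therefore also compared within each sample, where no reference gene is needed. This measure was chosen after the levels had been seen. Selp minus Itgam was -2.63, -3.42, -2.90 and -2.04 in healthy samples 3 to 6, and -5.21 (2), -2.21 (3), -2.52 (4) and -2.28 (5) with DNBS. It was -3.75 (1), -0.87 (2), -3.98 (6) and -2.27 (8) with DNBS_CEC, and -0.22 (1), 1.22 (4), -2.45 (5) and -1.01 (7) with DNBS_Nissle. In 3 of 4 DNBS_Nissle samples the value was above all healthy and all DNBS samples. The mean was 2.44 higher in DNBS_Nissle than in DNBS (exact permutation p = 0.0857, adjusted p = 0.234 over 30 tests of this kind) and 2.13 higher than in healthy (exact permutation p = 0.0571, adjusted p = 0.190). DNBS itself lay at -0.31 against healthy (exact permutation p = 0.857). Selp minus Itgb2 was 2.49 higher in DNBS_Nissle than in healthy, without overlap (exact permutation p = 0.0286, adjusted p = 0.190), and 1.93 higher than in DNBS (exact permutation p = 0.114). None of the 30 tests, those against Ptprc below included, passed after adjustment. No exact permutation p of 4 against 4 can fall below 0.0286, so a pass would have needed many of the 30 at that smallest value. The adjusted p-values of these ratios therefore say little about the size of a difference.

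Ptprc, which encodes the leukocyte-wide antigen CD45, gives a second scale. Its level differed by 0.19 ± 0.43 between DNBS and healthy and by 0.10 ± 0.43 between DNBS_Nissle and healthy in limma. Both listed T cell genes (Cd4, Cd28) and both B cell genes (Cd180, Cr2) were lower with DNBS than in healthy (median -0.96 and -0.66). The same held with DNBS_Nissle (median -1.07 and -1.20), while with DNBS_CEC 1 of the 2 B cell genes was higher. None passed, and the mix of leukocytes behind Ptprc was not tested. Itgam minus Ptprc ran from -1.97 to -0.24 in healthy and from 0.30 to 1.78 with DNBS, a difference of 1.88 without overlap (exact permutation p = 0.0286, adjusted p = 0.190). Itgb2 minus Ptprc ran from -1.54 to -0.27 in healthy and from -0.23 to 0.66 with DNBS, also without overlap but by a small margin (exact permutation p = 0.0286, adjusted p = 0.190). Leaving out 1 sample, this Itgb2 difference ranged from 0.77 to 1.19, with an exact permutation p of 0.114 without healthy 6. The Itgam difference had an exact permutation p of 0.0571 without DNBS 2. In DNBS_CEC the Itgam ratio spread from -2.18 to 2.49 and in DNBS_Nissle from -1.98 to 1.01, each range covering the healthy one. Selp minus Ptprc was 3.16 higher in DNBS_Nissle than in healthy, again without overlap (exact permutation p = 0.0286, adjusted p = 0.190). The share of all genes that separate the groups when set against Ptprc or Itgb2 was not computed. On the scale of the reference genes, 6.78% of genes lay wholly above healthy with DNBS and 7.44% with DNBS_Nissle. Whether separation in these ratios is unusual was therefore not tested.

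**Figure D3:**
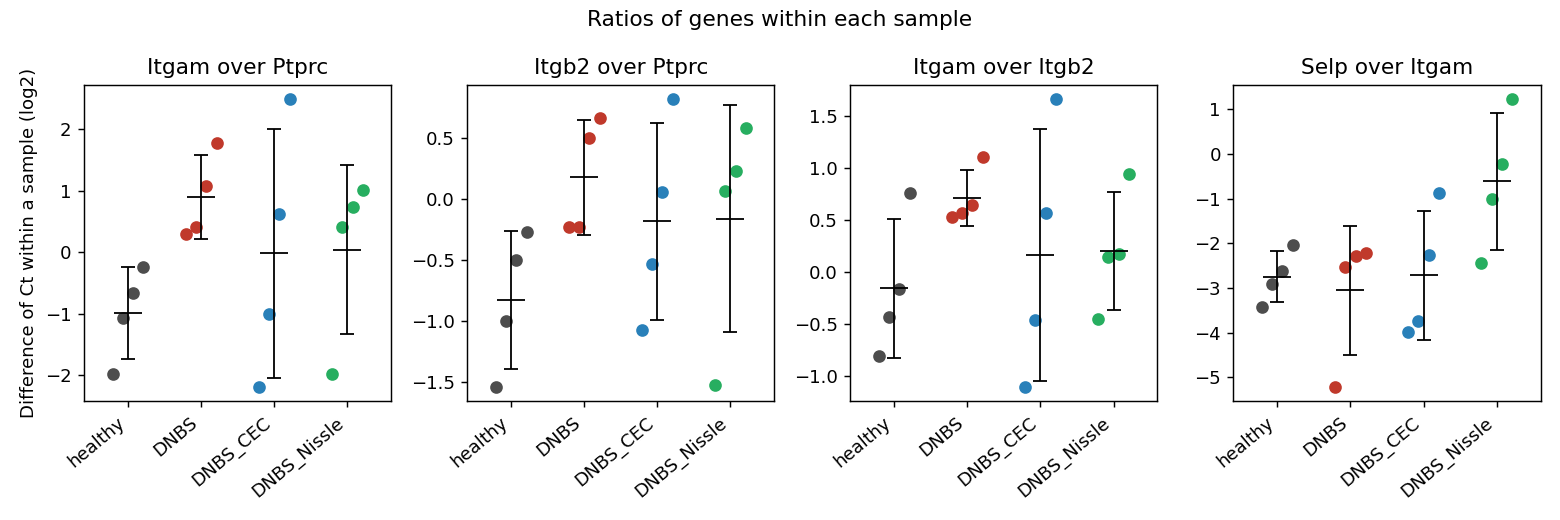
Differences of Ct within each sample (vertical axis, log2) for Itgam over Ptprc, Itgb2 over Ptprc, Itgam over Itgb2 and Selp over Itgam, by group, with mean ± SD. Itgam over Ptprc separates the DNBS samples (0.30 to 1.78) from the healthy ones (-1.97 to -0.24), and 3 of the 4 DNBS_Nissle samples stand above all healthy and DNBS samples in Selp over Itgam. How many other genes separate the groups on such scales was not computed.

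The 2 chains of Mac-1 varied together from sample to sample. Over 16 samples Itgam and Itgb2 had a Pearson r of 0.88 (permutation p = 1e-05, the smallest that 100000 resamples can give, adjusted p = 6e-05) and a Spearman rho of 0.87 (adjusted permutation p = 0.00018). Deviations from the group means had an r of 0.82 (adjusted permutation p = 0.0027), so the relation was also present within groups, and without the 2 samples farthest from the median of Itgam r was 0.84. The points share the reference genes of their sample; with each sample scaled to its global mean instead, r was 0.82. Selp had an r of 0.44 with Itgam and 0.50 with Itgb2 (adjusted permutation p = 0.126 and 0.0994). Itgam minus Itgb2 within a sample averaged -0.16 ± 0.67 in healthy, 0.71 ± 0.27 with DNBS, 0.17 ± 1.21 with DNBS_CEC and 0.20 ± 0.57 with DNBS_Nissle (SD, n = 4), and none of 6 exact permutation tests passed (lowest p = 0.114, adjusted p = 0.429).

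The genes most like each member over the 16 samples, by Pearson r among 411 genes detected in every sample, differed between the selectin and the integrins. For Selp they were Cxcl1 (r = 0.93), which encodes a neutrophil-attracting chemokine, Tnfsf9 (0.88), the ligand of the co-stimulatory receptor 4-1BB, S100a8 (0.86) and S100a9 (0.86), the abundant calcium-binding proteins of neutrophils, and Ccl7 (0.86), a monocyte-attracting chemokine. For Itgam they were Alox5ap (r = 0.89), which serves leukotriene synthesis, Itgb2 (0.88), the decoy receptor gene Il13ra2 (0.86), the properdin gene Cfp (0.85) and Irak3 (0.84), a brake on Toll-like receptor signalling. For Itgb2 they were Alox5ap (r = 0.91), Itgam (0.88), the Fc receptor gamma chain gene Fcer1g (0.87), Tlr13 (0.87) and Ppbp (0.83). The median r over all 411 genes was -0.14 for Selp, 0.18 for Itgam and 0.16 for Itgb2. These are descriptions over samples that share groups and reference genes.

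**Figure D4:**
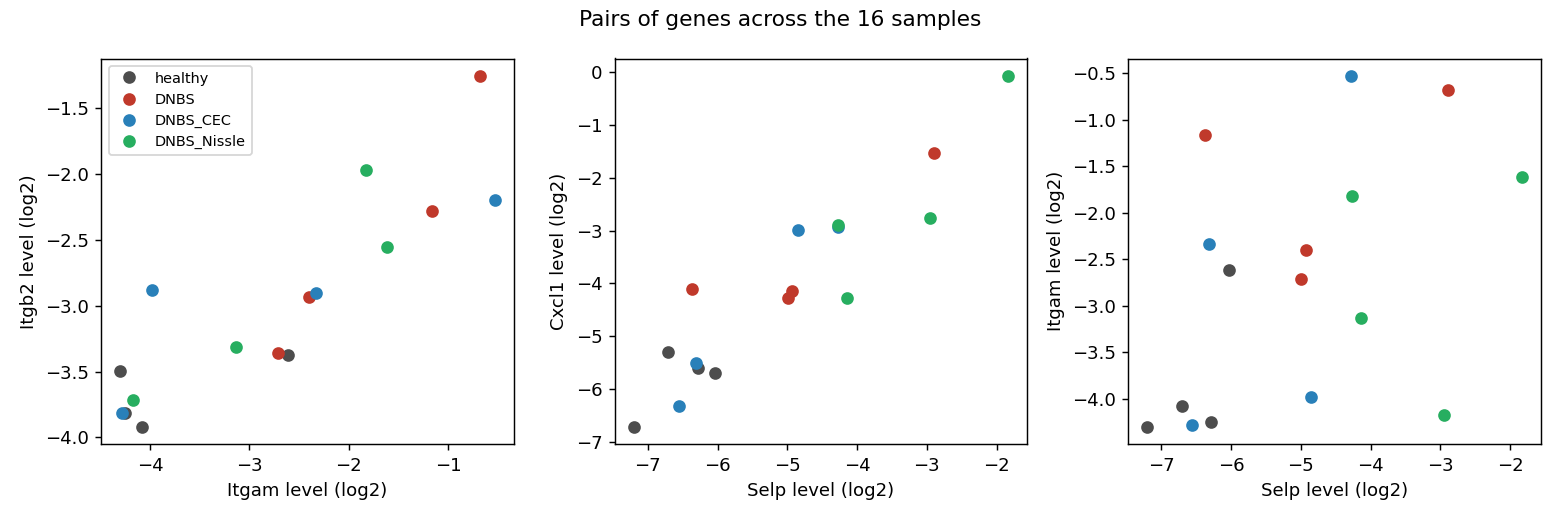
Levels (log2) of Itgb2 against Itgam, Cxcl1 against Selp, and Itgam against Selp in the 16 samples, coloured by group. Itgam and Itgb2 lie along a line (r = 0.88), as do Selp and Cxcl1 (r = 0.93), whereas Selp and Itgam scatter (r = 0.44), with DNBS_Nissle 4 high in Selp (-2.95) and low in Itgam (-4.17) and DNBS 2 the reverse (-6.37 and -1.17).

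Cxcl1 shows this sample by sample. Its level was -5.29 (3), -5.69 (4), -6.71 (5) and -5.61 (6) in healthy, the first of these a filled value, and -4.11 (2), -1.53 (3), -4.14 (4) and -4.28 (5) with DNBS. It was -2.93 (1), -2.99 (2), -5.52 (6) and -6.32 (8) with DNBS_CEC and -0.07 (1), -2.77 (4), -2.89 (5) and -4.28 (7) with DNBS_Nissle. The samples highest in Cxcl1, DNBS_Nissle 1 and DNBS 3, were 1st and 2nd in Selp as well, and DNBS_CEC 6 and 8 were low in both. In limma, Cxcl1 in DNBS_Nissle stood 3.32 ± 0.90 above healthy (adjusted p = 0.0734).

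Of the other genes that take part in leukocyte adhesion, the panel held Itgal (the alpha chain of LFA-1), Cd44 (a hyaluronan receptor that also binds E-selectin) and F11r (a junctional adhesion molecule), and none of the 3 passed in any comparison. Against healthy, DNBS gave Itgal 0.66 ± 0.45 (adjusted p = 0.725) and F11r -0.59 ± 0.37 (adjusted p = 0.653). DNBS_Nissle gave Itgal 0.38 ± 0.45 and F11r -0.24 ± 0.37. The median over the 3 was 0.41 with DNBS and 0.04 with DNBS_Nissle, against 0.12 and -0.09 over all genes tested. Itgb2l, a gene related to Itgb2 that was picked out after its values were seen, was detected in 0 of 4 healthy, 1 of 4 DNBS, 1 of 4 DNBS_CEC and 2 of 4 DNBS_Nissle samples. Of 5 enzymes that modify selectin ligands, Chst1, Chst2, Chst4, Tpst1 and B4galt1, a list drawn up after the data had been seen, none passed in any comparison.

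Cytokines that induce endothelial selectins, their receptors and NF-kB subunits formed, together with the interleukin-1 receptor antagonist gene Il1rn, a list of 19 genes on the panel. Il1rn, which is no inducer, is counted among the genes higher than in healthy in each DNBS-treated group (0.44 with DNBS, 0.56 with DNBS_CEC and 0.73 with DNBS_Nissle). Against healthy, DNBS gave 12 of 14 tested higher and 0 passed (median 0.39 against 0.12 over all genes), with Il1b at 3.71 ± 1.02 (adjusted p = 0.107) and Tnf at 1.74 ± 0.77 (adjusted p = 0.420) in limma. DNBS_Nissle gave 11 of 14 higher and 1 passed (median 0.25 against -0.09), Il1b, the gene of interleukin-1 beta, which rose by 4.76 ± 1.02 (27.1-fold, adjusted p = 0.0175). DNBS_CEC gave 12 of 14 higher and 0 passed (median 0.38 against 0.08). Between DNBS_CEC and DNBS_Nissle, 7 of 17 were higher in DNBS_CEC and 0 passed, with Il1b at -2.89 ± 1.03 (adjusted p = 0.961) and Il1a, the gene of interleukin-1 alpha, at -2.90 ± 1.49.

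Neutrophil-attracting chemokines and their receptors formed a list of 10 genes on the panel, which also held Csf3, Fpr1 and Ltb4r1, genes of neither kind. Against healthy, 6 of 8 tested were higher in DNBS_Nissle and 2 passed in limma (median 1.70 against -0.09 over all genes): Cxcl5, a chemokine gene, at 3.79 ± 0.71 (adjusted p = 0.0120) and Il8rb, the gene of the receptor CXCR2, at 3.98 ± 0.86 (adjusted p = 0.0175), while Il8ra was at -0.64 ± 0.81 and Csf3 at -0.41 ± 1.19. Il8rb was detected in 3 of 4 healthy samples, and its value in healthy 3 (Ct 27.60) is a filled one. Without that value it would not have been tested against healthy. With DNBS, 7 of 8 were higher and 0 passed (median 1.54 against 0.12), Cxcl5 being at 2.68 ± 0.71 (adjusted p = 0.104) and Il8rb at 2.82 ± 0.86 (adjusted p = 0.207). With DNBS_CEC, 6 of 7 were higher and 0 passed (median 0.80 against 0.08). Between DNBS_CEC and DNBS_Nissle, 1 of 9 was higher in DNBS_CEC and 0 passed, with Il8rb at -2.57 ± 0.80 (adjusted p = 0.814) and Cxcl3, another CXCR2 ligand gene, at -2.96 ± 1.28 (adjusted p = 0.961).

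Of 6 neutrophil genes on the panel 4 were tested against healthy, and all 4 were higher, 3 passing with DNBS and 3 with DNBS_Nissle. S100a8 rose by 6.49 ± 1.50 with DNBS (adjusted p = 0.0450) and by 7.81 ± 1.50 with DNBS_Nissle (adjusted p = 0.0120). S100a9 rose by 6.23 ± 1.41 (adjusted p = 0.0450) and 7.48 ± 1.41 (adjusted p = 0.0120), and the lactoferrin gene Ltf rose with DNBS by 4.32 ± 0.95 (adjusted p = 0.0450). The third to pass with DNBS_Nissle was Il8rb, which was tested only with its filled value in healthy 3. With DNBS_CEC all 4 were higher and 0 passed, S100a8 being at 4.71 ± 1.49 (adjusted p = 0.336). Between DNBS_CEC and DNBS_Nissle, 5 of 5 tested were lower in DNBS_CEC, of which 2 had an unadjusted p under 0.05 in limma and 0 passed. The 3 calls with DNBS fell to 0 with each of 8 other reference sets, scalings and detection limits, and stayed at 3 with 1 housekeeping gene alone as reference. The summed level (log2 of the genes' levels added on a linear scale, in which genes with a low Ct weigh most) was taken over the 3 genes measured in every sample. It ran from -5.07 to -3.41 in healthy, -0.90 to 5.64 with DNBS, -3.81 to 2.85 with DNBS_CEC and 2.14 to 3.58 with DNBS_Nissle. The part of these cells in the integrin and selectin values was not tested.

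Of 4 macrophage genes, Chi3l3 (the chitinase-like protein Ym1) rose with DNBS by 5.34 ± 1.13 (adjusted p = 0.0450) and with DNBS_Nissle by 5.33 ± 1.13 (adjusted p = 0.0175), whereas Cd14, Mrc1 and Ccr2 did not pass. With DNBS_CEC Chi3l3 was at 3.47 ± 1.22 (adjusted p = 0.451). Between DNBS_CEC and DNBS_Nissle, 4 of 4 were lower in DNBS_CEC and 0 passed. The call of Chi3l3 with DNBS was lost in the same 8 recomputations, and that with DNBS_Nissle with quantile normalization and all 3 other limits. The summed level of the 3 genes measured throughout overlapped between all groups, from -0.61 to -0.09 in healthy and from -0.57 to 0.45 with DNBS. The platelet chemokine gene Ppbp was 1.82 ± 0.86 higher in DNBS_Nissle than in healthy (adjusted p = 0.291), without overlap, its value in DNBS_Nissle 1 being a filled one. None of the endothelial markers chosen for the list (such as Pecam1, Cdh5 and Vwf) was analysed here, so the vessel content of the samples was looked at through 8 genes found in vessels among other places, chosen after the data had been seen. Their summed level ran from 0.80 to 0.89 in healthy, 0.41 to 1.19 with DNBS, 0.23 to 1.34 with DNBS_CEC and 0.02 to 1.07 with DNBS_Nissle, and none passed. Cav1, with a mean level of -0.40 in healthy, weighs most in this sum, which is therefore no measure of vessel content by itself.

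Those vessel genes did not move as a block in DNBS_Nissle. Darc, the chemokine-binding receptor of venules, was 1.05 ± 0.40 higher than in healthy without overlap (adjusted p = 0.208). Cav1, the gene of caveolin-1, was at -0.92 ± 0.41 (adjusted p = 0.275), also without overlap, which in this direction held for 6.35% of genes, and Aoc3, the vascular adhesion protein gene, at -1.51 ± 0.75 (adjusted p = 0.321). The median over the 8 was -0.31 against -0.09 over all genes. Across the 16 samples the level of Selp had an r of 0.79 with Darc, -0.62 with Cav1 and -0.62 with Aoc3. With the rest of the list its r was -0.52 (F2r), -0.23 (Acvrl1), -0.13 (S1pr1), -0.0002 (Stab1) and 0.01 (Procr).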

How the data were processed

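Per the labels, RNA was isolated from colonic mucosa with the mirVana kit and measured on the TaqMan OpenArray Mouse Inflammation Panel. The authors deposited 1 table of raw Ct values, not normalized, a log-scale number in which 1 cycle is about a doubling; the deposited values include some filled with the mean of the group's other samples. The software that set the thresholds is not given in the sources used here. Levels are the mean Ct of 13 reference genes (19 assays) minus the Ct of the gene, assays of 1 gene being averaged; some reference genes are not reported here by name. A Ct above 28 was left out of the fit. A gene was tested where both groups had it detected in 3 samples or more, by limma 3.58.1 (R 4.3.3) with 1 model over 16 samples with a mean per group and 12 residual degrees of freedom, and Benjamini-Hochberg adjustment over all genes tested per comparison at 0.05. The fit was tested on simulated data. Single values and ratios used two-sided exact permutation tests. The members and lists were chosen with earlier results of these data known. The rule was to name the members, the 5 genes most like each, and genes of each list. Of a list these were any gene that passed and the 2 with the lowest p in DNBS against healthy and in DNBS_CEC against DNBS_Nissle. The rule was not carried through for every list. The epithelial and mast cell lists, in which no gene passed, are not described, and some lists are given as counts only in DNBS_CEC against DNBS_Nissle. Genes beyond the rule (Itgb2l, Ptprc, the ligand enzymes, the vessel genes and the same genes in other comparisons) were added with values in view. The planned test of Selp minus Sele could not be run, since Sele was undetected in at least 2 samples of 3 groups. Depth has no counterpart in Ct values; the number of samples limits the precision. Promoter sequences and positions are RefSeq's, build GRCm38.p6.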

Additional observations from a re-analysis of the deposited data

Results flagged for a closer look

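In 4 places a sample stood far from the other 3 of its group, by Dixon's criterion, which flags about 1 in 20 groups by chance. The number of groups examined is not given here, so the 4 flags cannot be set against that rate. The Itgam level of healthy 4 was -2.62, against -4.30 to -4.08 in the other healthy samples. Selp minus Ptprc in DNBS_CEC 1 was -1.26, against -3.35 to -3.05 in the rest of its group. Selp minus Itgam in DNBS 2 was -5.21, against -2.52 to -2.21 in the other DNBS samples, and Selp minus Itgb2 in the same sample was -4.09, against -1.99 to -1.64.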

How the results depend on the processing

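Results were recomputed with other reference sets, scalings, detection limits, array weights, a replicate block and with each sample left out. Taking the 3 most stable reference genes moved the median difference of all genes in DNBS against healthy from 0.12 to -0.13. Genes called there were 5, falling to 1 with all endogenous controls, without Ywhaz and Rplp2, with the 3 most stable reference genes, at limits of 30 or 26, with no limit, without filled values and with the replicate block, to 0 with the global mean, with quantile normalization and without DNBS_Nissle 1 and healthy 3, and rising to 13 with array weights (0 to 6 leaving out 1 sample). In DNBS_Nissle against healthy the 11 calls became 4 at a limit of 26, 20 fitting these groups alone, 28 with array weights, and 0 with the replicate block or without DNBS_Nissle 1 and healthy 3 (0 to 14 leaving out 1 sample); DNBS_CEC against healthy had 0 to 1. Selp in DNBS_Nissle against healthy was 3.29 with the replicate block (adjusted p = 0.0946), 2.72 without DNBS_Nissle 1 and healthy 3 (adjusted p = 0.204), and 2.77 to 3.58 leaving out 1 sample; at a limit of 26 it was not tested. Same-numbered samples had deviations correlating from -0.47 to 0.31, over 0.1 in 4 of 10 pairs, against 33 of 86 pairs with other numbers. So few pairs cannot settle whether the numbers pair samples. Unadjusted exact permutation put Itgb2 in DNBS against healthy (1.20) and Selp in DNBS_CEC against DNBS_Nissle (-2.20) under 0.05 (p = 0.0286 each). In DNBS_CEC against DNBS_Nissle the sign turned for Itgam and Itgb2 with the replicate block (0.26 and 0.011) and without DNBS_Nissle 1 and healthy 3 (0.26 and 0.050), and ranged from -0.85 to 0.40 and from -0.34 to 0.24 leaving out 1 sample. Leaving out 1 sample, Itgam minus Itgb2 ranged from 0.66 to 1.18 in DNBS against healthy, -0.17 to 0.75 in DNBS_CEC against healthy, -0.76 to -0.29 in DNBS_Nissle against DNBS and -0.53 to 0.39 in DNBS_CEC against DNBS_Nissle, and Selp minus Itgam from -0.59 to 0.41 in DNBS against healthy. The r of Sele with Itgam went from -0.04 to 0.42 without the 2 samples farthest from the median of Sele. Neutrophil and macrophage genes called in DNBS against healthy (3 and 1) fell to 0 with all endogenous controls, without Ywhaz and Rplp2, with the 3 most stable reference genes, the global mean, quantile normalization and all 3 other limits. In DNBS_Nissle against healthy, selectin inducers called were 0 at a limit of 26 and 2 with no limit, neutrophil chemokines 1 with quantile normalization or at 26 and 4 at 30 or with no limit, neutrophil markers 1 at 26, and macrophage markers 0 with quantile normalization and all 3 other limits. Sele, with values above a limit of 26 set to that limit, was -0.13 in DNBS_Nissle against healthy and -0.15 in DNBS_CEC against DNBS_Nissle. All healthy samples sat at that limit. Its level shifts with the reference mean Ct (19.58 in healthy, 19.07 in DNBS_Nissle), so the sign against healthy gives no direction for Sele. The cause was not tested.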
